A study of Sus scrofa with 6 samples.

Results

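Complement is a set of plasma and tissue proteins that mark microbes and dying cells and recruit phagocytes. The genes described here were 9 members of this system: the 3 chains of C1q (C1QA, C1QB and C1QC), the ficolin FCN1, the protease C1S, the central component C3, complement factor D (CFD), the terminal component C7 and the alpha chain of C4b-binding protein (C4BPA). They were taken by symbol from the 20648 genes of a single-cell RNA-seq series of the pig ileum, and all 9 symbols were found. C1q and the ficolins recognise surfaces and start the classical and the lectin pathway. C1S is the protease of the C1 complex, and it cleaves C4 and C2. C3 is the point at which all pathways meet, factor D cleaves factor B in the alternative pathway, C7 is a part of the membrane attack complex, and C4b-binding protein is a soluble inhibitor of the classical and lectin pathways. The liver makes most complement of the plasma, whereas in the gut macrophages, stromal cells and epithelium are known local sources.

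The series held 6 libraries of ileum cells from male Large White piglets at 0, 1, 3, 7, 14 and 21 days of age, 1 library for each age. The piglets stayed with the sow, and no animal was treated or genetically altered. According to the methods of the study, 5 piglets were sampled at each age and scraped mucosa was dissociated with EDTA and TrypLE. A single chip was loaded for each age, and the files do not tell the cells of the piglets apart, so an age had no replicate and no difference between ages could be tested.

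Counts of unique molecular identifiers (UMIs, 1 per captured RNA molecule) were used in barcodes with at least 1000 UMIs and 500 genes, 76099 cells in all. The libraries held between 77391932 and 100348769 UMIs, and the median cell held between 3693 and 4560 UMIs. Of 75427 different barcodes, 672 occurred in more than 1 library. Cells were placed in a lineage by summed UMIs of marker genes: myeloid (at least 10 of LYZ, CST3 and AIF1), fibroblast (at least 5 of COL3A1 and COL1A1), endothelial (at least 3 of PECAM1 and FLT1) and epithelial (at least 5 of EPCAM, KRT8 and VIL1). The rules gave 1379 myeloid, 926 fibroblast, 696 endothelial and 4200 epithelial cells. A further 370 cells met more than 1 rule and 68528 met none. Of the latter, 52470 carried B-cell markers and 4683 carried markers of T and natural killer cells.

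The lineages were not spread evenly over the ages. Myeloid cells numbered 274, 791, 188, 22, 97 and 7 from day 0 to day 21, fibroblasts 301, 392, 222, 1, 4 and 6, and epithelial cells 2814, 1001, 100, 248, 36 and 1. Endothelial cells numbered 243, 283, 58, 36, 53 and 23. Classes with fewer than 20 cells at an age were left out of the comparisons. In bulk sums such as these, fewer positive cells and less RNA per cell cannot be told apart, and shares of cells with a UMI are therefore given beside the levels.

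The lineage names were checked against markers that the rules did not use. The 15 other myeloid markers summed to between 23.6 and 137 UMIs per 10000 in the myeloid cells of all ages, against 1.57 to 7.89 in cells of no rule. The 5 other epithelial markers summed to between 7.95 and 22.4 in the epithelial cells of days 0 to 14, against 0.0201 to 0.847. The 6 other fibroblast markers summed to between 71.1 and 92.6 in fibroblasts of days 0, 1 and 3, against 0.0963 to 0.370. The endothelial name was not borne out at the later ages. There the 5 other endothelial markers summed to 43.1 UMIs per 10000 at day 0, 36.9 at day 1, 11.04 at day 3, 2.98 at day 7, 0.0192 at day 14 and 0.112 at day 21, CDH5, VWF, KDR and TEK were at 0 UMIs at days 14 and 21, and B-cell markers summed to between 18.9 and 31.97. B- or T-cell markers at the level of their own rule were found in 10.7% of endothelial cells at day 0, 53.4% at day 3, 94.4% at day 7 and 100% at days 14 and 21. From day 7 on these are called the cells of the endothelial rule.

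The make-up of the myeloid cells also differed between ages, with 1 library for each. At day 3 CST3 was at 71.8 UMIs per 10000, close to 76.4 at day 0, but LYZ was at 2.17, CSF1R at 1.10 and CD68 at 0.0629, below the 6.54, 3.75 and 1.57 of day 0. XCR1, a receptor of dendritic cells that present antigen to cytotoxic T cells, was at 1.01 at day 3 and at or under 0.198 at every other age. The 6 dendritic markers together, XCR1 among them, differed less, at 4.87, 5.91, 7.63, 3.91 and 5.54 from day 0 to day 14. CLEC9A, another of the 6, was at 0 UMIs at day 3. S100A9 and S100A12, proteins of neutrophils and monocytes, were at 0.149 and 0.0644 at day 0, 46.1 and 28.1 at day 1, 1.38 and 0.829 at day 3, and 15.3 and 7.46 at day 14. Markers of other cells differed too. From day 0 to day 14 B-cell markers summed to 0.668, 0.777, 1.54, 4.28 and 6.18 in the myeloid cells. Follicular stromal markers summed to 0.386, 10.5, 4.24, 15.6 and 7.70. B- or T-cell markers at the level of their own rule were in 11.7% of myeloid cells at day 0 and 23.7% at day 14. These values stand beside every change of a myeloid level with age below, and their part in it was not tested.

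The C1q chains, FCN1, C7 and C1S lay mostly in 1 lineage each, whereas C3, CFD and C4BPA were divided. Myeloid cells held 90.7% of the C1QA, 90.4% of the C1QB, 90.0% of the C1QC and 81.0% of the FCN1 UMIs of all cells used. Fibroblasts, only 926 cells, held 89.4% of the C7 and 83.3% of the C1S UMIs. C3 lay mainly in epithelial cells, with 58.8% of its UMIs there, 23.9% in cells that met more than 1 rule and 5.67% in fibroblasts. CFD was the most widely spread, with 35.2% in epithelial cells, 33.5% in cells of more than 1 rule, 12.9% in cells of no rule and 10.7% in fibroblasts. C4BPA was divided between epithelial cells (41.0%), cells of no rule (28.3%) and myeloid cells (22.4%). Days 0 and 1 held most of these UMIs, and the shares differed at later ages: myeloid cells held 49.6% of the C1QA UMIs at day 3 (63 of 127), 28.9% at day 7 (41 of 142) and 6.45% at day 21 (4 of 62), with 48.0%, 71.1% and 93.5% in cells of no rule, and 29.6% of the FCN1 UMIs at day 3 (16 of 54). Epithelial cells held 31.2% of the C3 UMIs at day 3 and 0.794% at day 14. These shares depend on how many cells each class had, and the levels per class are given below.

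**Figure D1:**
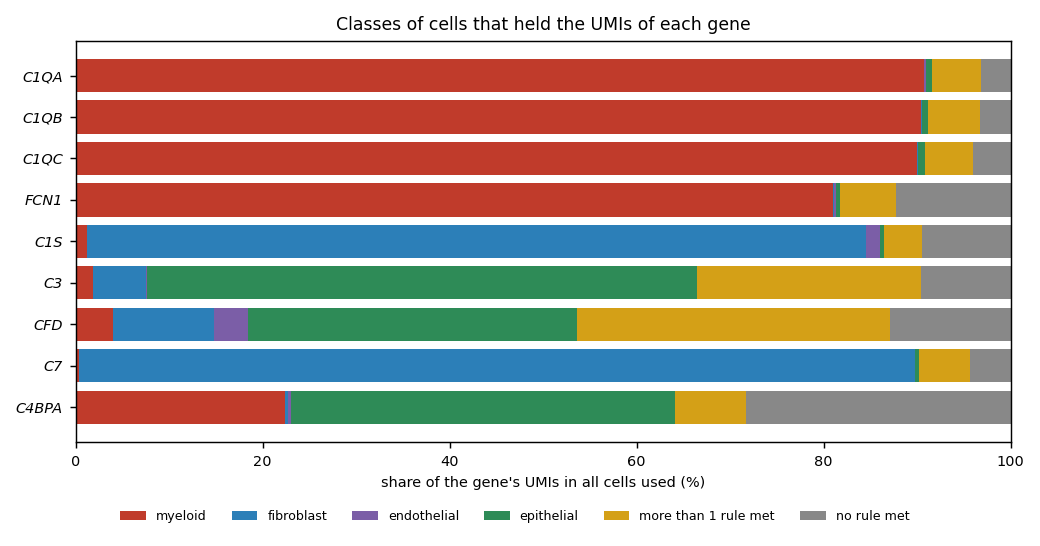
Share of each gene's UMIs (%, horizontal axis) by class of cells, all 6 libraries summed. The C1q chains and FCN1 lie mostly in the myeloid cells, C1S and C7 in the fibroblasts (83.3% and 89.4%), whereas C3, CFD and C4BPA are divided among several classes.

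To test which lineage carried a gene, counts were summed per library and class and compared with the cells of no rule in edgeR, with the library as a block. The libraries, which differ in age, served as the replicates of a class, and 25 sums and 12507 genes entered the fit. A gene was called at an adjusted p under 0.05 and at least 2-fold. All 9 genes passed the filter on low counts.

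In myeloid cells 6 of the 9 genes were higher than in cells of no rule and 0 were lower (0 also at an unadjusted p under 0.05 and with DESeq2), where 11.5% of all genes tested were called higher and 8.89% lower. The median log2 difference of the 9 was 3.51, against -0.21 over all genes. In fibroblasts 4 were higher and 2 lower, with 19.4% and 10.5% of all genes called, and medians of -1.37 and -0.05. In epithelial cells 3 were higher and 6 lower, with 23.3% and 15.2% of all genes called, and medians of -2.20 and 0.01. Among the epithelial genes called lower, the calls of C7 and FCN1 were lost without the library of day 0 (edgeR adjusted p = 0.0839 and 0.0646) and without that of day 1 (0.104 and 0.302), where that of C1QB was lost as well (0.0544). In endothelial cells 1 was higher and 1 lower, with 10.4% and 4.05% of all genes called, and medians of -1.74 and -0.10. These sums included the cells of the endothelial rule of days 7, 14 and 21, whose name was not borne out. The same holds for every edgeR test of endothelial cells below, except where those ages are left out. With scaling by total UMIs alone the median of all genes moved up by 0.30 in fibroblasts and 0.21 in endothelial cells, the share of all calls that were higher went from 64.8% to 77.9% and from 71.9% to 83.8%, and 0 members were called lower in either. The counts of members called higher stayed at 4 and 1.

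**Figure D2:**
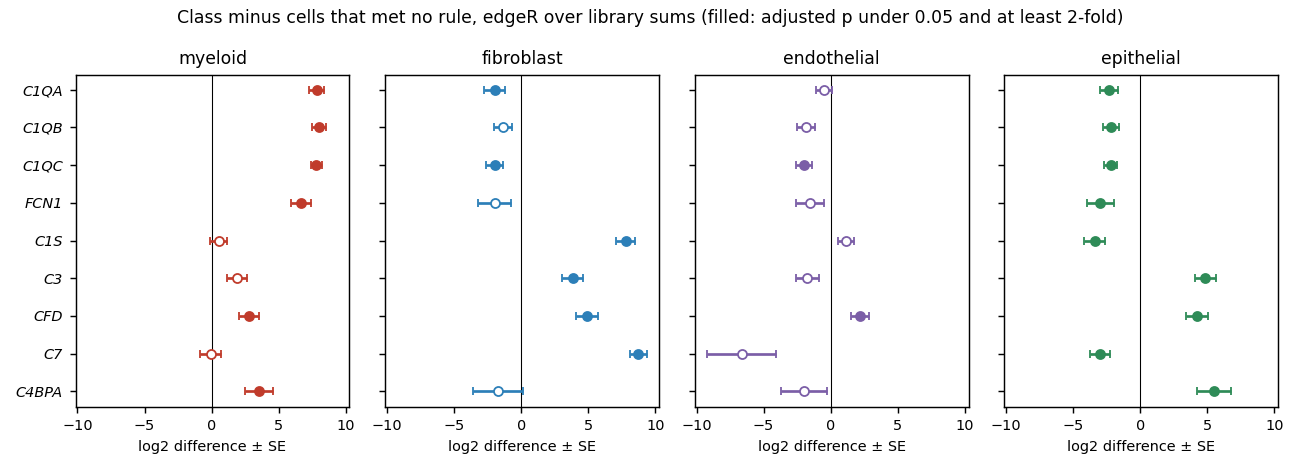
Difference of each lineage from the cells that met no rule (log2, horizontal axis; bars ± SE) from edgeR over the sums per library; filled points were called. The C1q chains and FCN1 stand far to the right in myeloid cells alone of the 4 lineages, C7 and C1S in fibroblasts alone, and CFD is filled on the right in all 4. The open C7 point of the endothelial panel is a fitted value for a class with 0 C7 UMIs. That panel includes the cells of the endothelial rule of days 7, 14 and 21.

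C1q is assembled from its A, B and C chains, and all 3 genes lie side by side on chromosome 6 of Sscrofa11.1, C1QA at 6:80586259-80589213, C1QC at 6:80592591-80597464 and C1QB at 6:80601680-80606076. All 3 were higher in myeloid cells than in cells of no rule, with log2 differences of 7.82 ± 0.57 (SE; edgeR adjusted p = 2.53e-08) for C1QA, 8.03 ± 0.51 (4.36e-09) for C1QB and 7.81 ± 0.42 (3.87e-10) for C1QC. In epithelial cells all 3 were lower than in cells of no rule, by 2.32 for C1QA, 2.18 for C1QB and 2.20 for C1QC on the log2 scale, with edgeR adjusted p-values of 0.00511, 0.00340 and 0.000930. In fibroblasts C1QA (-1.98) and C1QC (-1.96) and in endothelial cells C1QC (-2.003) were called lower as well (edgeR adjusted p = 0.0460, 0.0204 and 0.0233). The lower calls rested on few UMIs. With free RNA subtracted none of the 6 passed: the fitted differences were larger, between -7.74 and -5.22, but so was their error (edgeR adjusted p between 0.0518 and 0.551). The calls in fibroblasts and endothelial cells were also lost without the library of day 0 or day 1. Cells of no rule, the reference, held 931 C1QA UMIs and carried the 18 myeloid markers at 2.83 UMIs per 10000. The part of any myeloid cells among them in the lower calls was not tested. In all libraries together C1QA was at 0.0281 UMIs per 10000 in cells of no rule and 25.7 in myeloid cells. In free RNA, read from barcodes with at most 100 UMIs, C1QA was at 1.62 at day 0 and 1.53 at day 1, above the level of the other 3 lineages at both ages.

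In myeloid cells that met no other rule, the C1q level was highest at day 0. With cells counted in every lineage they met, C1QB and C1QC were not higher at day 0 than at day 1. C1QA was at 52.9 UMIs per 10000 at day 0 (95% Poisson interval 51.9 to 54.0), 26.9 (26.5 to 27.3) at day 1, 0.360 (0.277 to 0.461) at day 3, 3.08 (2.21 to 4.18) at day 7 and 1.66 (1.35 to 2.03) at day 14. C1QB was at 40.1, 19.97, 0.360, 3.23 and 2.63 at the same ages, and C1QC at 24.6, 11.3, 0.394, 1.88 and 1.35. The chains thus moved together, with the first 2 ages far above the later ones and the lowest values at day 3. The 7 myeloid cells of day 21 held 13 C1q UMIs, all in 1 cell.

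Both the number of positive cells and their content differed. At least 1 UMI of any chain was found in 111 of 274 myeloid cells at day 0 (40.5%, exact binomial 95% interval 34.6 to 46.6), 200 of 791 at day 1 (25.3%), 21 of 188 at day 3 (11.2%), 5 of 22 at day 7 and 9 of 97 at day 14 (9.28%). All 3 chains were seen in 92, 151, 8, 4 and 2 of these cells. C1q was concentrated: the 138 myeloid cells with the most C1QA held 88.9% of its UMIs, positive cells held a median of 46.0 UMIs of C1QA, and the highest held 334. Thinned to 1000 UMIs per cell, C1QA was seen in 18.8% of myeloid cells and in 0.311% of cells of no rule. The unthinned shares were 22.3% and 0.762%, at median depths of 7273 and 3059 UMIs at day 0 and 6738 and 3422 at day 1. Most cells of no rule carried B-cell markers, and C1q is not known to be made in B cells. Myeloid markers were found in this class too, and which of its cells held the C1QA was not tested.

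Between neighbouring ages, a gene was named as higher or lower where it differed at least 2-fold with its 95% Poisson intervals apart, and this is a description of 2 libraries and not a test. From day 0 to day 1, 2 of 8 genes with enough UMIs in myeloid cells were higher (5.33% of all genes) and 2 lower (5.26% of all genes). C1QB was 2.01-fold and C1QC 2.17-fold lower at day 1, and C1QA, 1.97-fold lower, was just outside the rule. With cells counted in every lineage they met, the log2 changes of C1QB (0.143) and C1QC (0.044) had the opposite sign. From day 1 to day 3, 6 of 8 were lower and 0 higher, where 6.43% and 12.9% of all genes were. C1QA was 74.7-fold lower (58.3 to 97.2), C1QB 55.5-fold and C1QC 28.7-fold. From day 3 to day 7, 4 of 6 were higher and 0 lower, with 2.92% and 1.93% of all genes. C1QA was 8.56-fold, C1QB 8.97-fold and C1QC 4.76-fold higher at day 7, on 41, 43 and 25 UMIs in 22 cells. From day 7 to day 14 only FCN1 of 7 genes was higher and 0 were lower, with 4.41% and 1.84% of all genes.

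The 3 chains were in nearly the same ratio in the myeloid cells of days 0 and 1. Of the C1q UMIs of day 0, 45.0% were C1QA, 34.1% C1QB and 20.9% C1QC, and at day 1 the shares were 46.2%, 34.3% and 19.5%. On fewer UMIs the shares were 32.3%, 32.3% and 35.4% at day 3 (195 UMIs), 37.6%, 39.4% and 22.9% at day 7 (109 UMIs) and 29.4%, 46.6% and 23.9% at day 14 (326 UMIs). These are counts of 3' tags, not scaled by length. Free RNA held the chains in nearly the same shares, 43.3%, 35.3% and 21.4% at day 0 and 44.4%, 34.1% and 21.4% at day 1.

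FCN1 encodes M-ficolin, a lectin made by monocytes and neutrophils, and lies at 1:274125666-274132917. It was higher in myeloid cells than in cells of no rule by 6.65 ± 0.76 on the log2 scale (edgeR adjusted p = 3.81e-06) and lower in epithelial cells by 2.98 (edgeR adjusted p = 0.0167). Its course with age was not that of C1q. FCN1 was at 0.867 UMIs per 10000 in myeloid cells at day 0 (0.743 to 1.00), 8.80 (8.56 to 9.04) at day 1, 0.0914 (0.0523 to 0.148) at day 3, 1.20 (0.687 to 1.95) at day 7 and 10.2 (9.38 to 11.0) at day 14. Days 1 and 14 were high and days 0 and 3 were low, the same ages at which S100A9 and S100A12 were high and low. From day 0 to day 1 it was 10.2-fold higher (8.73 to 11.9), from day 1 to day 3 it was 96.2-fold lower (59.2 to 168), from day 3 to day 7 13.1-fold higher and from day 7 to day 14 8.48-fold higher (5.18 to 14.9). Cells with an FCN1 UMI were 29 of 274, 375 of 791, 8 of 188, 6 of 22 and 47 of 97 in age order. After thinning, FCN1 was seen in 27.0% of myeloid cells and in 0.321% of cells of no rule, and without thinning in 33.9% and 0.531%.

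**Figure D3:**
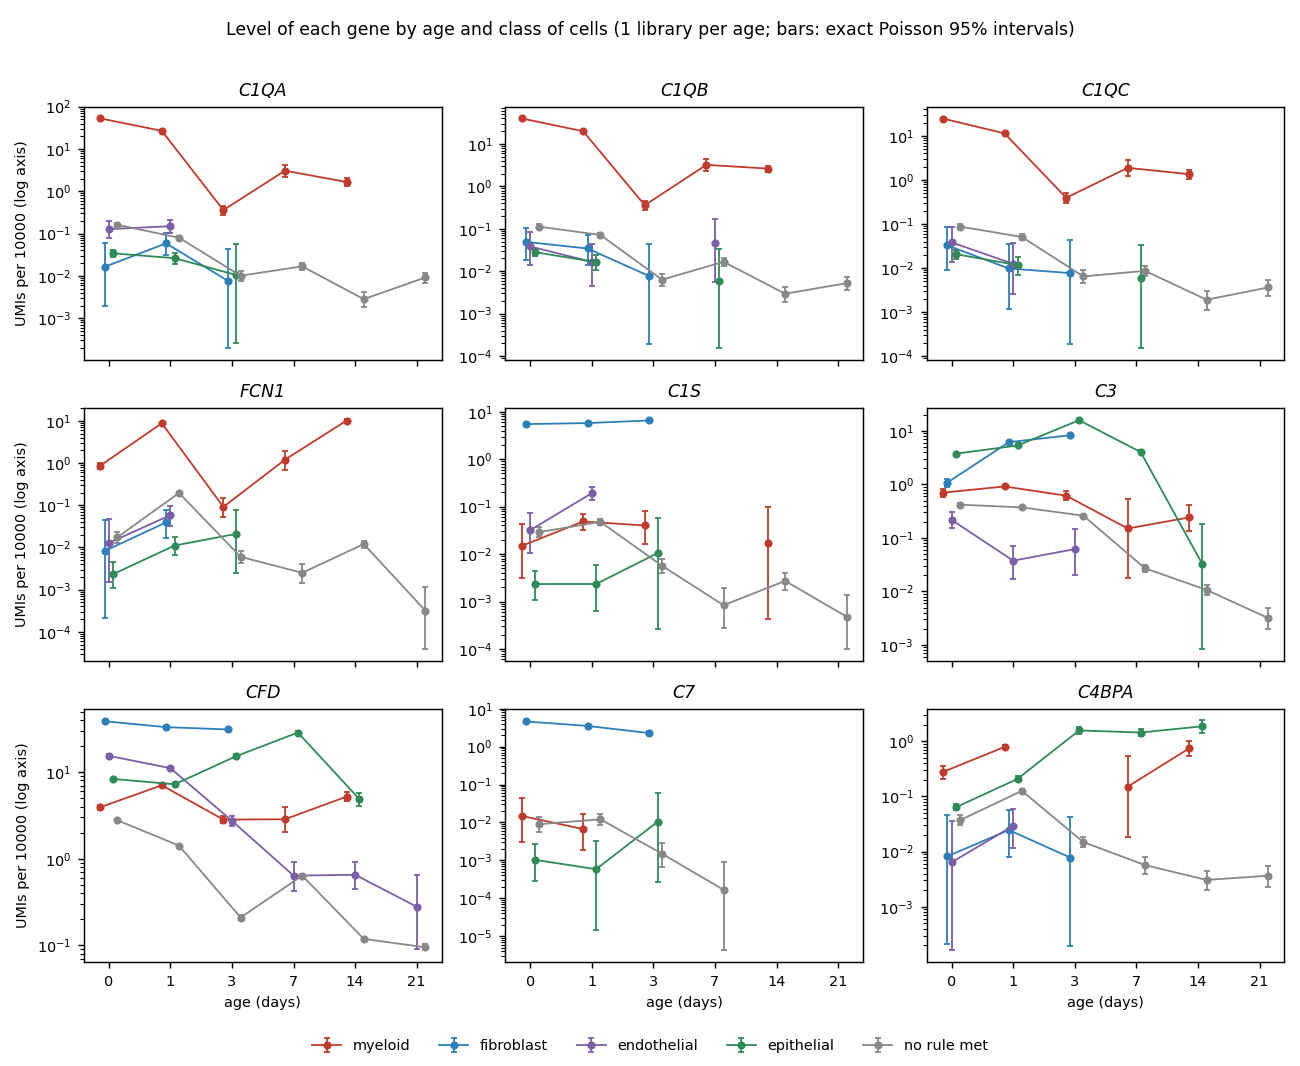
Level of each gene (UMIs per 10000, log axis) against age in days, 1 panel per gene and 1 line per class of cells, with exact Poisson 95% intervals and 1 library per age. Classes under 20 cells or at 0 UMIs have no point, and lines break there. In myeloid cells the C1q chains start highest and are lowest at day 3, whereas FCN1 peaks at days 1 and 14, and in epithelial cells C3 is highest at day 3 (15.9) and CFD at day 7 (28.6).

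C1q and FCN1 were seldom seen in the same myeloid cells at days 0 and 1. With each cell thinned to 1000 UMIs, FCN1 was found at day 0 in 0 of 96 cells with a C1q UMI, with an exact upper limit of 3.77%, and in 15 of 178 cells without one (8.43%, 4.79 to 13.5). At day 1 it was found in 6 of 165 cells with C1q (3.64%, 1.35 to 7.75) and in 302 of 626 without (48.2%, 44.3 to 52.2). Only these libraries held 20 or more cells of both kinds. The difference was negative in both, with a mean of -26.5 percentage points, and the exact sign-flip permutation test gave p = 0.5 (two-sided), the smallest value that 2 libraries allow. At days 3, 7, 14 and 21 FCN1 was in 0 of 10, 0 of 4, 2 of 5 and 0 of 1 cells with C1q, too few to compare. Unthinned, FCN1 was in 5 of 111 cells with C1q (4.50%) against 24 of 163 without (14.7%) at day 0, in 22 of 200 (11%) against 353 of 591 (59.7%) at day 1, in 0 of 21 against 8 of 167 at day 3, and in 5 of 9 against 42 of 88 at day 14.

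C1S, whose gene lies at 5:63670309-63681466, was a gene of fibroblasts. It was higher there than in cells of no rule by 7.79 ± 0.69 on the log2 scale (edgeR adjusted p = 9.12e-08), and higher than in endothelial cells by 6.64 ± 0.67 (edgeR adjusted p = 8.94e-07). In epithelial cells it was lower than in cells of no rule by 3.41 (edgeR adjusted p = 0.000939), a call that was lost with cells counted in every lineage they met (edgeR adjusted p = 0.151), with no block (edgeR adjusted p = 0.122) and with the DESeq2 Wald test (adjusted p = 0.173). Its level in fibroblasts differed by less than 2-fold between ages, with 5.48 UMIs per 10000 (5.07 to 5.91) at day 0, 5.76 (5.43 to 6.10) at day 1 and 6.54 (6.11 to 6.99) at day 3. It was spread over many cells: 714 of 926 fibroblasts held a UMI, and 42.0% did after thinning, against 0.118% of cells of no rule. Cells of no rule with markers of muscle and pericytes, 203 in all, carried C1S at 1.98 (1.67 to 2.33), and 42.9% of them held a UMI. The fibroblasts themselves carried markers of muscle and pericytes, at 32.5, 30.7 and 61.3 UMIs per 10000 at days 0, 1 and 3, and follicular stromal markers at 0.944, 6.34 and 16.6. These values stand beside every fibroblast level by age, and their part in it was not tested.

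C7, at 16:25846860-25902707, was also a gene of fibroblasts, higher than in cells of no rule by 8.73 ± 0.61 (edgeR adjusted p = 4.79e-07). It was at 4.60 UMIs per 10000 (4.23 to 5.002) at day 0, 3.52 (3.27 to 3.79) at day 1 and 2.28 (2.03 to 2.56) at day 3. The intervals of the 3 ages were apart and the level was lower at each later age, but no step reached 2-fold. The share of fibroblasts with a C7 UMI after thinning was 31.2%, 24.2% and 18.0%. The 584 endothelial cells of days 0, 1 and 3 held 0 C7 UMIs in 4768219, which allows a level of up to 0.00629 UMIs per 10000. C7 and C1S, though not in the same pathway step, followed each other over the 25 sums with Pearson r = 0.980, as a description, since libraries and classes share depth and make-up.

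C3, at 2:72431470-72471622, was carried by the epithelium and by part of the fibroblasts. It was higher than in cells of no rule by 4.85 ± 0.78 on the log2 scale in epithelial cells (edgeR adjusted p = 4.97e-05) and by 3.83 ± 0.80 in fibroblasts (edgeR adjusted p = 0.000881). In myeloid cells the difference was 1.90 ± 0.74 and missed the threshold (edgeR adjusted p = 0.0580). It passed under 8 of 26 alternative settings, among them without the library of day 0 (2.37, edgeR adjusted p = 0.0283), with free RNA subtracted (2.67, 0.0217) and with cells counted in every lineage they met (3.93, 0.000111). The last setting adds, among others, the 229 cells that met both the myeloid and the epithelial rule. They held 9439 C3 UMIs, against 833 in the myeloid cells. The difference between fibroblasts and epithelial cells did not pass the test, with a log2 difference of -1.02 ± 0.82 (edgeR adjusted p = 0.367).

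In epithelial cells C3 was at 3.76 UMIs per 10000 (3.70 to 3.83) at day 0, 5.36 (5.25 to 5.47) at day 1, 15.9 (15.1 to 16.7) at day 3 and 4.04 (3.74 to 4.36) at day 7. At day 14 a single UMI was found in 36 cells. Day 3 was the highest, 2.97-fold above day 1 (2.81 to 3.13), and day 7 was 3.93-fold below it (3.59 to 4.31). The ratio of day 7 to day 14, on 670 UMIs and 1 UMI, was 124 with a counting interval of 22.2 to 4904. C3 was in 63 of 100 epithelial cells at day 3 and in 34.0% at day 0, 40.5% at day 1 and 28.6% at day 7. After thinning the shares were 39.0%, 13.2%, 16.6% and 11.3% in the same order, against 1.30% of cells of no rule over all ages. Free RNA carried C3 at 2.77 at day 0 and 2.39 at day 1, within 2-fold of the epithelial level at day 0.

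Within the epithelium C3 followed the crypt markers OLFM4 and SPINK1. Over all ages the 429 cells with at least 5 UMIs of these markers had C3 at 16.04 UMIs per 10000, 660 cells with goblet markers at 1.14, 693 with enteroendocrine markers at 0.464 127 cells with markers of more than 1 of these kinds at 14.1 and the 2291 cells with none at 1.31. The order held within the libraries: crypt-marker cells were at 13.4, 19.3, 36.1 and 15.3 at days 0, 1, 3 and 7 and the cells without any of these markers at 1.24, 1.36, 5.17 and 2.14. At day 3, 26 of the 100 epithelial cells carried crypt markers, against 265 of 2814 at day 0. The UMIs were concentrated, since 420 of 4200 epithelial cells held 83.0% of them.

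In fibroblasts C3 was higher after day 0, going from 1.08 UMIs per 10000 (0.906 to 1.28) at day 0 to 6.19 (5.85 to 6.54) at day 1 and 8.35 (7.86 to 8.86) at day 3. It was the only 1 of 5 genes with enough UMIs that was at least 2-fold higher at day 1 than at day 0, 5.71-fold (4.77 to 6.89), where 3.44% of all genes were. None of the 5 was lower, where 1.72% of all genes were. From day 1 to day 3, 0 of 5 were higher or lower, where 5.08% and 3.19% of all genes were. The difference was found within the cells with PDGFRA, a marker of subepithelial and lamina propria fibroblasts, which went from 1.85 (137 cells) to 6.82 (240 cells) and 7.37 (125 cells), and in the fibroblasts without it, which went from 0.390 to 2.10 and 1.69. The highest level was in 20 fibroblasts with at least 3 UMIs of the follicular stromal markers FCAMR and PLA2G2D, at 43.9 in 8 cells of day 1 and 31.0 in 12 cells of day 3. Neither marker had a UMI in the 301 fibroblasts of day 0, although CXCL13, another marker of follicular stroma, was at 0.944 there (115 UMIs in 20 cells). These markers were not confined to fibroblasts. Over all ages the 3 summed to 7.35 UMIs per 10000 in myeloid cells and 7.58 in fibroblasts. C3 was carried by few fibroblasts, as 93 of 926 held 93.8% of its UMIs. C1S and CFD were more even, with 38.4% and 35.6% in the 93 highest cells. Cells that met the fibroblast rule and another are not in the C3 levels above. At day 0, 14 cells of the fibroblast and epithelial rules held 207 C3 UMIs, against 132 in the fibroblasts. At day 1, 6 such cells held 105, against 1259. At day 3, 8 cells of the myeloid and fibroblast rules held 576, against 1080 in the fibroblasts.

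CFD, at 2:77509792-77511988, is known as an adipocyte product. It was the only 1 of the 9 that was called higher in all 4 lineages than in cells of no rule: by 4.90 ± 0.85 in fibroblasts (edgeR adjusted p = 0.000162), 4.25 ± 0.81 in epithelial cells (0.000227), 2.79 ± 0.77 in myeloid cells (0.0106) and 2.18 ± 0.69 in endothelial cells (0.0312). The endothelial call was lost without the library of day 0, day 1 or day 3 (edgeR adjusted p between 0.0747 and 0.143), and with the cells of the endothelial rule of days 7, 14 and 21 left out the difference was 2.88 (edgeR adjusted p = 0.0102). Fibroblasts were above endothelial cells by 2.72 ± 0.78 (edgeR adjusted p = 0.0186). Without the endothelial-rule cells of days 7, 14 and 21 that difference was 2.13 and its call was lost (edgeR adjusted p = 0.125), as it was without the library of day 3 (2.15, edgeR adjusted p = 0.158). Fibroblasts and epithelial cells differed by 0.65 ± 0.86 (edgeR adjusted p = 0.617).

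In fibroblasts CFD was at 38.7 UMIs per 10000 (37.6 to 39.8) at day 0, 33.0 (32.2 to 33.8) at day 1 and 31.1 (30.1 to 32.04) at day 3. It was found in 773 of 926 fibroblasts. In epithelial cells it was at 8.33 (8.24 to 8.42), 7.23 (7.11 to 7.36), 15.3 (14.5 to 16.1), 28.6 (27.8 to 29.4) and 4.86 (4.11 to 5.70) at days 0, 1, 3, 7 and 14. Days 3 and 7 were above the other ages: day 3 was 2.11-fold above day 1 and day 14 was 5.89-fold below day 7, while the step from day 3 to day 7 was under 2-fold. Few cells carried much of this: at day 3, 2 of 100 cells held 36.5% of the CFD UMIs and the other 98 were at 9.76, and at day 7, 61 of 248 held 79.9% and the others were at 6.89. Cells at or under the same level of CFD, 50 UMIs per 10000, were at 5.86 at day 0 and 3.82 at day 1. Cells that met both the epithelial and the myeloid rule are not in these levels. They numbered 124, 94, 3 and 8 at days 0, 1, 3 and 7 and held 27954, 12644, 1734 and 2620 CFD UMIs. The epithelial cells of these ages held 32121, 12357, 1453 and 4741. The make-up of the epithelial cells differed too, with goblet markers at 23.1, 19.8, 18.3, 0.223 and 0.0652 UMIs per 10000, enteroendocrine markers at 11.5, 5.40, 31.1, 2.51 and 0.0978 and B-cell markers at 0.305, 0.386, 2.01, 4.96 and 8.87 from day 0 to day 14. The median mitochondrial share of epithelial cells was 7.81%, 9.49%, 10.7%, 12.8% and 7.20% at the same ages. The part of make-up and mitochondrial share in the epithelial levels by age, those of C3 and C4BPA included, was not tested. In endothelial cells CFD was at 15.4, 11.096 and 2.74 at days 0, 1 and 3 and at or under 0.653 in the cells of the endothelial rule of later ages. In myeloid cells CFD was at 3.93, 7.04, 2.83, 2.85 and 5.21 from day 0 to day 14, 2.49-fold lower at day 3 than at day 1. Free RNA carried CFD at 11.97 at day 0, 6.58 at day 1, 1.54 at day 3 and 3.31 at day 7. At day 0 this was above the epithelial and the myeloid level, and at day 1 it was close to both, whereas the fibroblast and endothelial levels were above it at both ages.

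Within the epithelium CFD was not placed like C3. Over all ages it was at 16.9 UMIs per 10000 in cells with goblet markers, 12.5 in cells with enteroendocrine markers and 6.60 in cells with crypt markers. The order between goblet and enteroendocrine cells was not the same in each library: 19.3 and 13.0 at day 0, but 10.0 and 12.3 at day 1 and 9.66 and 6.90 at day 3. Among fibroblasts CFD was at 47.6, 36.7 and 44.0 in cells with PDGFRA and at 30.6, 22.4 and 11.5 in those without, at days 0, 1 and 3. In endothelial cells with lymphatic markers CFD was at 23.6 at day 0 and 11.6 at day 1, against 12.9 and 11.0 in the other endothelial cells. The lymphatic level was above the other only at day 0, beyond counting error.

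**Figure D4:**
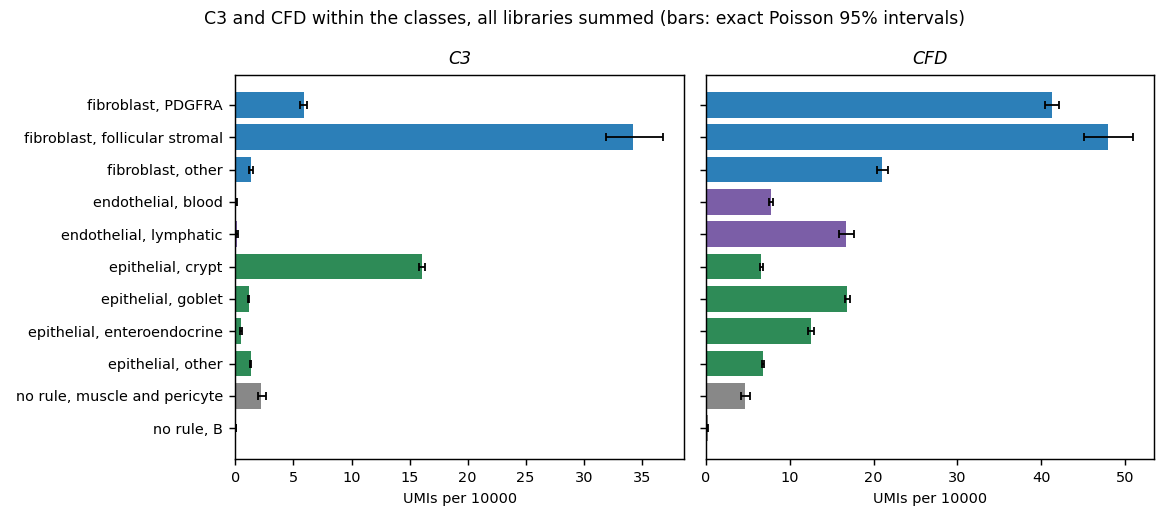
C3 (left) and CFD (right) in UMIs per 10000 within subdivisions of the lineages, all libraries summed, with exact Poisson 95% intervals. C3 is highest in the 20 fibroblasts with follicular stromal markers (34.3) and in crypt-marker epithelium (16.04), and CFD is above 20 in all 3 divisions of the fibroblasts.

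C4BPA, the subunit of C4b-binding protein that binds C4b, was the rarest of the epithelial members. The symbol names 2 entries of the reference table on chromosome 9 (9:67726159-67774369 and 9:67815544-67827509), so its counts cannot be given to one locus. It was higher than in cells of no rule by 5.49 ± 1.24 in epithelial cells (edgeR adjusted p = 0.00103) and by 3.51 ± 1.05 in myeloid cells (edgeR adjusted p = 0.0170), and the difference between these lineages did not pass the test (-1.98 ± 1.14, edgeR adjusted p = 0.171). The myeloid call was lost with a lower depth minimum per cell, with the 5000 deepest barcodes of each library and with doubled thresholds (edgeR adjusted p = 0.0616, 0.0606 and 0.123). In epithelial cells it was at 0.0635 UMIs per 10000 (0.0558 to 0.0720) at day 0, 0.207 (0.186 to 0.230) at day 1, 1.57 (1.32 to 1.84) at day 3, 1.44 (1.26 to 1.63) at day 7 and 1.86 (1.41 to 2.41) at day 14. The later 3 ages overlapped and lay above the first 2. From day 0 to day 1 it was 3.26-fold higher (2.76 to 3.85) and from day 1 to day 3 7.55-fold higher (6.19 to 9.17). Free RNA carried C4BPA at 0.0616 at day 0 and 0.170 at day 1, close to the epithelial levels, and at 0.0415 at day 3, below the epithelial level. This closeness cannot decide whether the levels are background: C1QA, at 1.62 and 1.53 in free RNA, was at 0.0342 and 0.0263 in these epithelial cells. The part of free RNA in the C4BPA levels was not tested. A C4BPA UMI was found in 184 of 2814, 181 of 1001, 32 of 100, 73 of 248 and 26 of 36 cells. After thinning the shares were 0.533%, 2.20%, 12%, 4.44% and 22.2%, against 0.298% of cells of no rule over all ages. In myeloid cells C4BPA was at 0.277 at day 0, 0.787 at day 1, 0.150 at day 7 and 0.744 at day 14. It was at 0 UMIs in the 188 cells of day 3, which allows up to 0.0171. It was 2.84-fold higher at day 1 than at day 0 (2.15 to 3.82).

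Counted over the members, epithelial cells had 2 of 7 genes higher at day 1 than at day 0 and 0 lower (5.59% and 4.07% of all genes), C4BPA and FCN1, the latter on 9 and 19 UMIs. FCN1 was at 0.00233 and 0.0111 UMIs per 10000 in these cells, below the 0.0753 and 0.453 of free RNA. C4BPA was close to free RNA at both ages. The part of free RNA in the differences of FCN1 and C4BPA was not tested. From day 1 to day 3, 3 of 7 were higher and 0 lower (13.1% and 11.7% of all genes): C3, CFD and C4BPA. From day 3 to day 7, 0 of 3 were higher and 1 lower (15.4% and 7.22% of all genes), C3. From day 7 to day 14, 0 of 3 were higher and 2 lower (3.52% and 7.04% of all genes), C3 and CFD. In endothelial cells 1 of 5 was higher and 1 lower at day 1 than at day 0 (2.19% and 1.46% of all genes): C1S was 6.01-fold higher, from 5 to 46 UMIs, at 0.0320 and 0.192 UMIs per 10000 below the 0.130 and 0.219 of free RNA, and C3 was 5.79-fold lower, from 34 to 9 UMIs. From day 1 to day 3, 0 of 4 were higher and 3 lower (7.9% and 16.3% of all genes). These were CFD, 4.06-fold lower, and C1QA and C1S, which went from 36 and 46 UMIs to 0, and 53.4% of the endothelial cells of day 3 carried B- or T-cell markers. Lymphatic markers were at 13.2 UMIs per 10000 in the endothelial cells of day 1 and at 0.0990 at day 3. Cells with these markers held 29 of the 36 C1QA UMIs of day 1. The part of this make-up in the changes was not tested.

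The other complement genes were read from a list of 42, of which 38 were among the genes of the files and 29 passed the filter. In myeloid cells 11 of 29 were higher than in cells of no rule and 1 was lower (11.5% and 8.89% of all genes). Those at 1 UMI per 10000 or more were CFP, properdin, at 1.73 (log2 difference 6.36 ± 0.74, edgeR adjusted p = 4.41e-06), and the integrin chain ITGB2 at 1.77 (1.89 ± 0.38, 0.00106). In fibroblasts 10 were higher and 2 lower (19.4% and 10.5% of all genes). C1R, the partner protease of C1S, was at 7.35 (7.96 ± 0.65, edgeR adjusted p = 3.36e-08), SERPING1, the inhibitor of C1R and C1S, at 4.19 (7.00 ± 0.69, 3.18e-07), and C4A, the substrate of C1S, at 3.98 (6.03 ± 0.60, 3.73e-07). CLU was at 3.62, COLEC12 at 1.93, C2 at 1.60 and COLEC10 at 1.22, and all of them were called higher.

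In fibroblasts C1R followed C1S in being nearly level with age, at 6.94, 7.32 and 8.33 UMIs per 10000 at days 0, 1 and 3. C4A was at 1.06, 4.50 and 6.25 at these ages, a course like that of C3 in the same cells.

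In epithelial cells 12 of the 29 were higher and 8 lower (23.3% and 15.2% of all genes). FCN2, another ficolin, was at 26.3 UMIs per 10000 (6.95 ± 1.07, edgeR adjusted p = 3.90e-05). CFI, which inactivates C3b and C4b, was at 5.91 (6.10 ± 0.58, 5.72e-07), and CFB, the substrate of factor D, at 1.80 (6.88 ± 0.80, 2.96e-06). FCN1 and FCN2 thus lay in different lineages, with FCN2 at 0.238 and FCN1 at 5.78 in myeloid cells. In epithelial cells FCN2 was at 30.4, 12.6, 156, 4.15 and 0 at days 0, 1, 3, 7 and 14, CFB at 1.61, 1.81, 9.24, 2.09 and 0.685, and CFI at 6.08, 5.39, 13.7, 3.76 and 0.326. All 3 were highest at day 3, the age at which C3 was highest there. In endothelial cells 6 were higher and 1 lower (10.4% and 4.05% of all genes), and only CD93, a receptor on endothelium, was at 1 or more, with 4.97 (7.26 ± 0.67, edgeR adjusted p = 5.64e-07). These endothelial values include the cells of the endothelial rule of days 7, 14 and 21.

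The genes whose log2 levels were most like each member over the 25 sums were found among 13749 genes, as a description. For C1QA they were C1QC (Pearson r = 0.992), C1QB (0.990) and MSR1 (0.970), and C1QB and C1QC were closest to each other (0.997). For FCN1 they were PILRA (0.979), LOC100624191 (0.978) and SLC11A1 (0.977). For C1S they were KIRREL (0.995), CRISPLD2 (0.995) and TBX2 (0.994), and for C7 ALKAL2, SVEP1 and CSPG4 (all 0.998). For CFD they were ARHGAP21 (0.952), SRGAP1 (0.932) and CD9 (0.929), for C3 H6PD (0.925), ADGRD1 (0.922) and ACSS3 (0.914), and for C4BPA GMPR (0.874), BATF2 (0.855) and KIAA1211L (0.831). FCN1 and C1QA had r = 0.840 over these sums, although at days 0 and 1 they were seldom seen in the same cell.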

How the data were processed

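The deposited files were gene-by-barcode matrices of raw UMI counts, which the authors made with Cell Ranger 3.1.0 and STAR on the susScr11 build without removing empty barcodes. The methods force 5000 cells per library and remove cells under 200 genes. That choice was tried as the 5000 deepest barcodes. The labels name a V3 kit and the methods a v2 kit, and the series' design text names the cecum where the labels of all samples name the ileum. Genome coordinates come from the RefSeq table of Sscrofa11.1. The members, marker lists and list of 42 complement genes were chosen with earlier results of these data known, so no count over them is independent support.

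A level is a gene's share of all UMIs in a class, written per 10000, with exact Poisson 95% intervals. Shares have exact (Clopper-Pearson) intervals. A count of 0 allows 3 counts, and all of these cover counting error only. Shares were also read with every cell thinned to 1000 UMIs. Doublets were not removed in the main analysis: Scrublet (scanpy 1.11.5) marked only 1 cell by its own threshold, which is not a working call, and leaving out the 7870 cells with the highest scores was an alternative. Cells of more than 1 lineage rule were kept apart. Free RNA was read from barcodes with at most 100 UMIs.

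Sums per library and class with at least 20 cells were tested with edgeR 4.0.16 (quasi-likelihood, TMM, library as a block, Benjamini-Hochberg over 12507 genes) in R 4.3.3. The SE is the log2 difference divided by the square root of F. The step was tested on simulated counts before use. Apart from genes changed on purpose in myeloid cells, these were drawn for every class from the mean of the cells of no rule. They held the same dispersion for all genes and no difference between libraries, so they do not cover how real classes and libraries vary. The block is the library itself, since the classes of a library share its animals. The p-values therefore measure how a difference between classes varies from library to library, and the libraries differ in age. Named are all members, the complement genes called in a lineage with at least 1 UMI per 10000 there (some are not reported here, nor is a split of the myeloid cells by marker genes), the 3 genes most like each member by Pearson r of log2(UMIs per 1000000 + 10), and the cell type markers. Any other gene named was chosen after its values were seen. Age was compared only by size, at least 2-fold with intervals apart and at least 10 UMIs in either library. The closing section gives the effect of other cell filters, thresholds, normalizations and tests. The settings without the cells of the endothelial rule of later ages were chosen after seeing the data. No sequences were used.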

Additional observations from a re-analysis of the deposited data

Results flagged for a closer look

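Some genes moved in opposite directions in different lineages between the same ages. With 1 library per age, none of these differences was tested. From day 0 to day 1 the log2 change of C3 was 2.51 in fibroblasts and -2.53 in endothelial cells, the latter on 34 and 9 UMIs. Free RNA carried C3 at 2.77 and 2.39 UMIs per 10000 at these ages, above the endothelial levels of 0.217 and 0.0376 and the fibroblast level of 1.08 at day 0. From day 1 to day 3 the log2 change of CFD was -1.32 in myeloid cells and -2.02 in endothelial cells, but 1.08 in epithelial cells. Of the 1453 epithelial CFD UMIs of day 3, 531 lay in 2 cells, and the other 98 cells were at 9.76 UMIs per 10000. Epithelial cells of day 1 at the same limit, 50 UMIs of CFD per 10000 or less, were at 3.82. Between the same ages the log2 change of C4BPA was 2.92 in epithelial cells. In myeloid cells it went to 0 UMIs, a log2 change of -5.52 or lower when 3 counts are allowed at day 3. At that age LYZ, CSF1R and CD68 were lower and XCR1 higher in the myeloid cells than at day 0, and the dendritic marker CLEC9A had no UMI at either age. Against day 1, the age compared here, S100A9 and S100A12 were lower in the myeloid cells of day 3.

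Cells that met more than 1 lineage rule entered no comparison between lineages but carried C3 and CFD above the level of the cells of no rule. The 370 cells carried C3 at 7.92 UMIs per 10000 and CFD at 36.5, above the 0.127 and 0.562 of cells of no rule. Their median depth was 29396 UMIs at day 0 and 25219 at day 1, against 7273 and 6738 in myeloid cells and 9775.5 and 15322 in epithelial cells. Most of the CFD lay in 229 cells that met both the myeloid and the epithelial rule, with CFD at 43.0 and C3 at 9.03. The genes that led these cells, SPP1, GUCA2A, GUCA2B and CCL20, were chosen after their values were seen. Whether these cells are doublets was not tested.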

How the results depend on the processing

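Over 26 alternative settings the members called higher than in cells of no rule numbered 5 to 7 in myeloid cells, 4 in fibroblasts, 3 in epithelial cells and 0 to 2 in endothelial cells. The endothelial count of 1 went to 0 with a lower depth minimum per cell and with no block, to 0 without the library of day 0, 1 or 3 (leave-one-out range 0 to 1), and to 2 with cells counted in every lineage they met. CFD was lost from the myeloid count with no block (edgeR adjusted p = 0.0899), where CFD kept its direction. The lower counts depended on the setting, and the cause was not tested. The fibroblast count of 2 went to 0 with a higher depth minimum, with the 5000 deepest barcodes, every lineage counted, thresholds halved, B- or T-marked cells left out, free RNA subtracted, total UMIs alone, the DESeq2 Wald test or no block. It went to 1 under a mitochondrial limit, with Scrublet, DESeq2 size factors, 50 cells or either setting without endothelial-rule cells of later ages, and ranged from 0 to 3 when each library was left out. The endothelial count of 1 went to 2 with a lower depth minimum, thinned, or without endothelial-rule cells of later ages. It went to 0 with a higher depth minimum, with the 5000 deepest, every lineage counted, thresholds doubled or halved, B- or T-marked cells or high Scrublet scores left out, total UMIs alone, DESeq2 or no block, and ranged from 0 to 2 when each library was left out. The epithelial count of 6 went to 2 with the 5000 deepest, free RNA subtracted or DESeq2, to 0 with every lineage counted or no block, to 4 with thresholds halved and to 5 when thinned, and ranged from 3 to 6 when each library was left out. The myeloid count of 0 went to 1 with thresholds doubled.

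Counting cells in every lineage they met reversed C1QA (1.25) and C1QC (1.21) in fibroblasts, C1QC in endothelial cells (2.19) and C1QB in epithelial cells (0.094), all without passing the test. It also turned the change of C1QB (0.143) and C1QC (0.044) from day 0 to day 1 in myeloid cells. The cause was not tested. DESeq2 turned C7 in epithelial cells (0.10, on 6 UMIs), and thinning turned C4BPA between myeloid and epithelial cells (0.85). Of the counts between neighbouring ages, every-lineage counting moved those higher to 11 in myeloid and 6 in endothelial cells, and those lower to 3 in fibroblasts, 8 in endothelial and 6 in epithelial cells. Doubled thresholds moved fibroblasts to 2 higher and endothelial cells to 2 lower. Endothelial cells had 2 lower with free RNA subtracted, 1 lower without B- or T-marked cells, and 0 higher and 1 lower when thinned. Epithelial cells had 6 lower under the mitochondrial limit. Averaging over cells gave levels and no counts.

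Unthinned, the shares of cells with a UMI were 22.3% for C1QA, 21.0% for C1QB, 20.3% for C1QC and 33.9% for FCN1 in myeloid cells, 77.1% for C1S and 48.8% for C7 in fibroblasts, and 35.6% for C3, 74.6% for CFD and 11.8% for C4BPA in epithelial cells. The difference in the share of cells with FCN1 between myeloid cells with and without C1q lay between -44.6 and -8.43 percentage points, all in the direction reported. These ends are the values of day 1 alone and day 0 alone. The other settings used the same libraries again, so they are not independent. Unthinned, day 14 went the other way (55.6% with C1q against 47.7% without), with too few cells to enter. No paired analysis was possible between ages because each age had 1 library. Lineages were compared within libraries by the block of the edgeR fit, and myeloid cells with and without C1q by the sign-flip test. Few myeloid and fibroblast cells from day 7 on, 22 and 1 at day 7, and few epithelial cells after it limit every statement on those ages.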

Other observations

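A small part of the epithelium carried much of its CFD. Cells with CFD above 50 UMIs per 10000, a range set on CFD itself after its values were seen, were 253 of 4200 (6.02%) and held 39.9% of the epithelial CFD UMIs. In these cells GUCA2A and GUCA2B, which encode the gut hormones guanylin and uroguanylin, were at 158 and 73.3 UMIs per 10000, against 3.97 and 0.793 in the other epithelial cells. CA7, a carbonic anhydrase, was at 4.26 against 0.0180, SPIB, a transcription factor of specialised epithelium, at 5.51 against 0.111, and GP2, a receptor of M cells, at 3.64 against 0.0231. SPP1 was at 30.5 against 0.322, PYY at 309 against 6.85, and TFF3 at 295 against 91.0. CCL20 was at 12.8 against 4.30, but at 10.8 against 12.7 at day 1. The ages differed. In the cells above 50 of days 0, 1 and 7, GUCA2A was at 122, 375 and 42.9 and PYY at 378, 313 and 104. In the same order GP2 was at 1.09, 1.03 and 14.0 and SPP1 at 13.7, 8.41 and 100. Whether the cells above 50 are 1 kind of cell was not tested. C3 was lower, at 0.887 against 4.50, and C4BPA was at 0 UMIs. Such cells were 146 of 2814 at day 0 (5.19%), 44 of 1001 at day 1 (4.40%), 2 of 100 at day 3 (2%), 61 of 248 at day 7 (24.6%), where they held 79.9% of the CFD UMIs, and 0 of 36 at day 14. The 2 cells of day 3 held 36.5% of the CFD UMIs of that age and 0 UMIs of PYY. These values are a description with no test.

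In endothelial cells with lymphatic markers C1QA was seen without its partner chains. The 114 such cells held 36 C1QA UMIs, 1 of C1QB and 0 of C1QC. The 29 C1QA UMIs of day 1 stood beside 1 of C1QB and 0 of C1QC. In the other endothelial cells the counts were 20, 11 and 9, and in the free RNA of day 1 they were 719, 552 and 347. C1QA made up 45.6% of the C1q UMIs of the myeloid cells and 45.1% of those of the cells of more than 1 rule. The pattern was noticed in these data and was not tested.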
